A study of Mus musculus with 18 samples.

Results

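The exocytosis and SNARE machinery was followed here as 73 mouse genes in RNA-seq libraries of whole pancreatic islets. The genes were taken by symbol: all numbered synaptotagmins (Syt), synaptotagmin-like proteins (Sytl), syntaxins (Stx), syntaxin-binding proteins (Stxbp), vesicle-associated membrane proteins (Vamp), complexins (Cplx) and Rims proteins, with Snap23, Snap25, Snap29, Snap47, Unc13a to Unc13d, Rab3a to Rab3d, Rab27a and Rab27b. They are 73 of 53801 listed mouse genes, and membership rests on the symbol alone. The study has 18 libraries in 4 groups, each from mice aged 5 weeks and fed normal chow. The groups are male islets heterozygous for the S64F variant of MafA (S64F/+, 4 libraries), male wild-type islets (WT, 4 libraries), female S64F/+ islets (5 libraries) and female WT islets (5 libraries). The labels name no cell-type driver, other allele or agent. The labels do not say whether replicates came from separate animals or from pools, so p-values measure the spread between these libraries only.

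Islet endocrine cells release hormone by fusing dense-core granules with the plasma membrane. A granule SNARE of the VAMP family pairs with syntaxin and SNAP-25 family SNAREs on the plasma membrane. Syntaxin-binding proteins (Stxbp genes) act on syntaxin, Munc13 and RIM proteins (Unc13 and Rims genes) prime the granule, complexins bind the assembled SNARE complex, and synaptotagmins sense calcium. Rab3 and Rab27 GTPases on the granule recruit effectors such as granuphilin (Sytl4), which tether it at the membrane. MafA is a transcription factor of mature beta cells that binds the insulin gene promoter.

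Library totals were 29 to 61.6 M (1e6) counts in male S64F/+, 19.3 to 40.5 in male WT, 21.8 to 57.4 in female S64F/+ and 23.5 to 109 in female WT islets. Mafa, the mutated gene, fell to 197 ± 52.3 CPM in male S64F/+ islets, against 905 ± 80.8 CPM in male WT islets (SD, n = 4 each), and to 160 ± 49.8 CPM in female S64F/+ islets, against 639 ± 117 CPM in female WT islets (SD, n = 5 each). CPM values were scaled between libraries by the trimmed mean of M values (TMM). A gene count sums both alleles and so does not check the genotype. All 9 beta-cell markers examined were detected in every group, so the islet label held. Their mean log2 CPM was 10.64 ± 0.07 in male S64F/+ and 11.58 ± 0.09 in male WT islets, and 10.7 ± 0.09 in female S64F/+ and 11.4 ± 0.17 in female WT islets. Ins1 and Ins2 together took 13.4 ± 0.334% of counts in male S64F/+ and 21.7 ± 1.55% in male WT islets, and 17.3 ± 3.41% in female S64F/+ and 19.1 ± 4.04% in female WT islets. In these bulk libraries fewer cells of a type and less RNA per cell cannot be told apart, and this touches each result below.

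Enough reads for a test were found for 68 of the 73 genes. The other 5 had 10 (Cplx4), 4 (Stx19), 2 (Syt10), 18 (Syt8) and 80 (Unc13c) counts over all 18 libraries. Each tested gene had a library above 0.236 CPM, the filter level at the median depth, in at least 3 of the 4 groups. Summed over all 73 genes, the machinery reached 5020 ± 187 CPM in male S64F/+ and 6000 ± 197 CPM in male WT islets (SD, n = 4 each). TMM multiplied the totals of male S64F/+ libraries by 1.07 to 1.14 and those of male WT libraries by 0.88 to 1.03. Part of the male gap therefore comes from scaling. Syt13 alone held 752 to 913 CPM of the sum in male S64F/+ and 1040 to 1080 CPM in male WT islets. In females the sum was 5060 ± 284 CPM in S64F/+ and 5930 ± 190 CPM in WT islets (SD, n = 5 each).

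Levels of different genes were compared per kilobase of annotated exon, as means over the 18 libraries. Syt13, an atypical synaptotagmin that lacks the usual calcium-binding residues, stood highest at 260 CPM per kb. Cplx2, the main complexin of these islets, followed at 98 CPM per kb, and the granule effector Sytl4 at 78.8. Vamp2, the granule SNARE, was at 59.4, Rab27a at 52.7, Syt7 at 45.5, Rab3d at 40.4, Rab3a at 35.2 and Syt4 at 25.6 CPM per kb. The plasma membrane partners were lower, with Snap25 at 20.8 and Stx1a at 8.17 CPM per kb. Neighbours in this order were not always apart. The libraries ranged from 51.6 to 67.3 CPM per kb for Vamp2 and from 36.5 to 69.7 for Rab27a, whereas the range for Syt13, 200 to 319, lay above that of every other member.

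The comparison of S64F/+ with WT islets asked how the variant changes this machinery in each sex, as the series title places the islet dysfunction mainly in males. In males 14 members were higher and 18 were lower in S64F/+ islets, and 36 did not pass (edgeR quasi-likelihood test, Benjamini-Hochberg adjusted p under 0.05 over all 18364 tested genes). That is 20.6% higher and 26.5% lower, against 15.4% and 12.3% of all tested genes. In females 4 members were higher, 14 were lower and 50 did not pass. That is 5.88% higher and 20.6% lower, against 10.2% and 11% of all tested genes. The median log2 fold change of the members was -0.08 in males and -0.02 in females, beside -0.03 and 0.02 for all tested genes. In either direction 32 members were called in males (47.1%, against 27.6% of all tested genes) and 18 in females (26.5%, against 21.2%). Library ranges were apart for 37 members in males (54.4%, against 35.1% of all tested genes) and for 12 in females (17.6%, against 11.6%). Leaving out male S64F/+ 2 or male WT 4 lowered the 14 higher in males to 7 or 8, and leaving out female S64F/+ 1 or 5 raised the 4 higher in females to 8 or 7.

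The male split depended on scaling. With library totals in place of TMM the median log2 fold change of all genes moved by 0.22 in males, and 86.4% of all called genes were higher in male S64F/+ islets, against 55.6% with TMM. Under that scaling 18 members were higher and 4 were lower in males (Cplx3, Rims3, Stxbp6 and Syt2), while in females, where all genes moved by -0.02, 5 were higher and 11 lower. The other male falls lost their call under that scaling, also where only a female loss is named below. The male falls below are therefore falls relative to the bulk of genes.

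**Figure D1:**
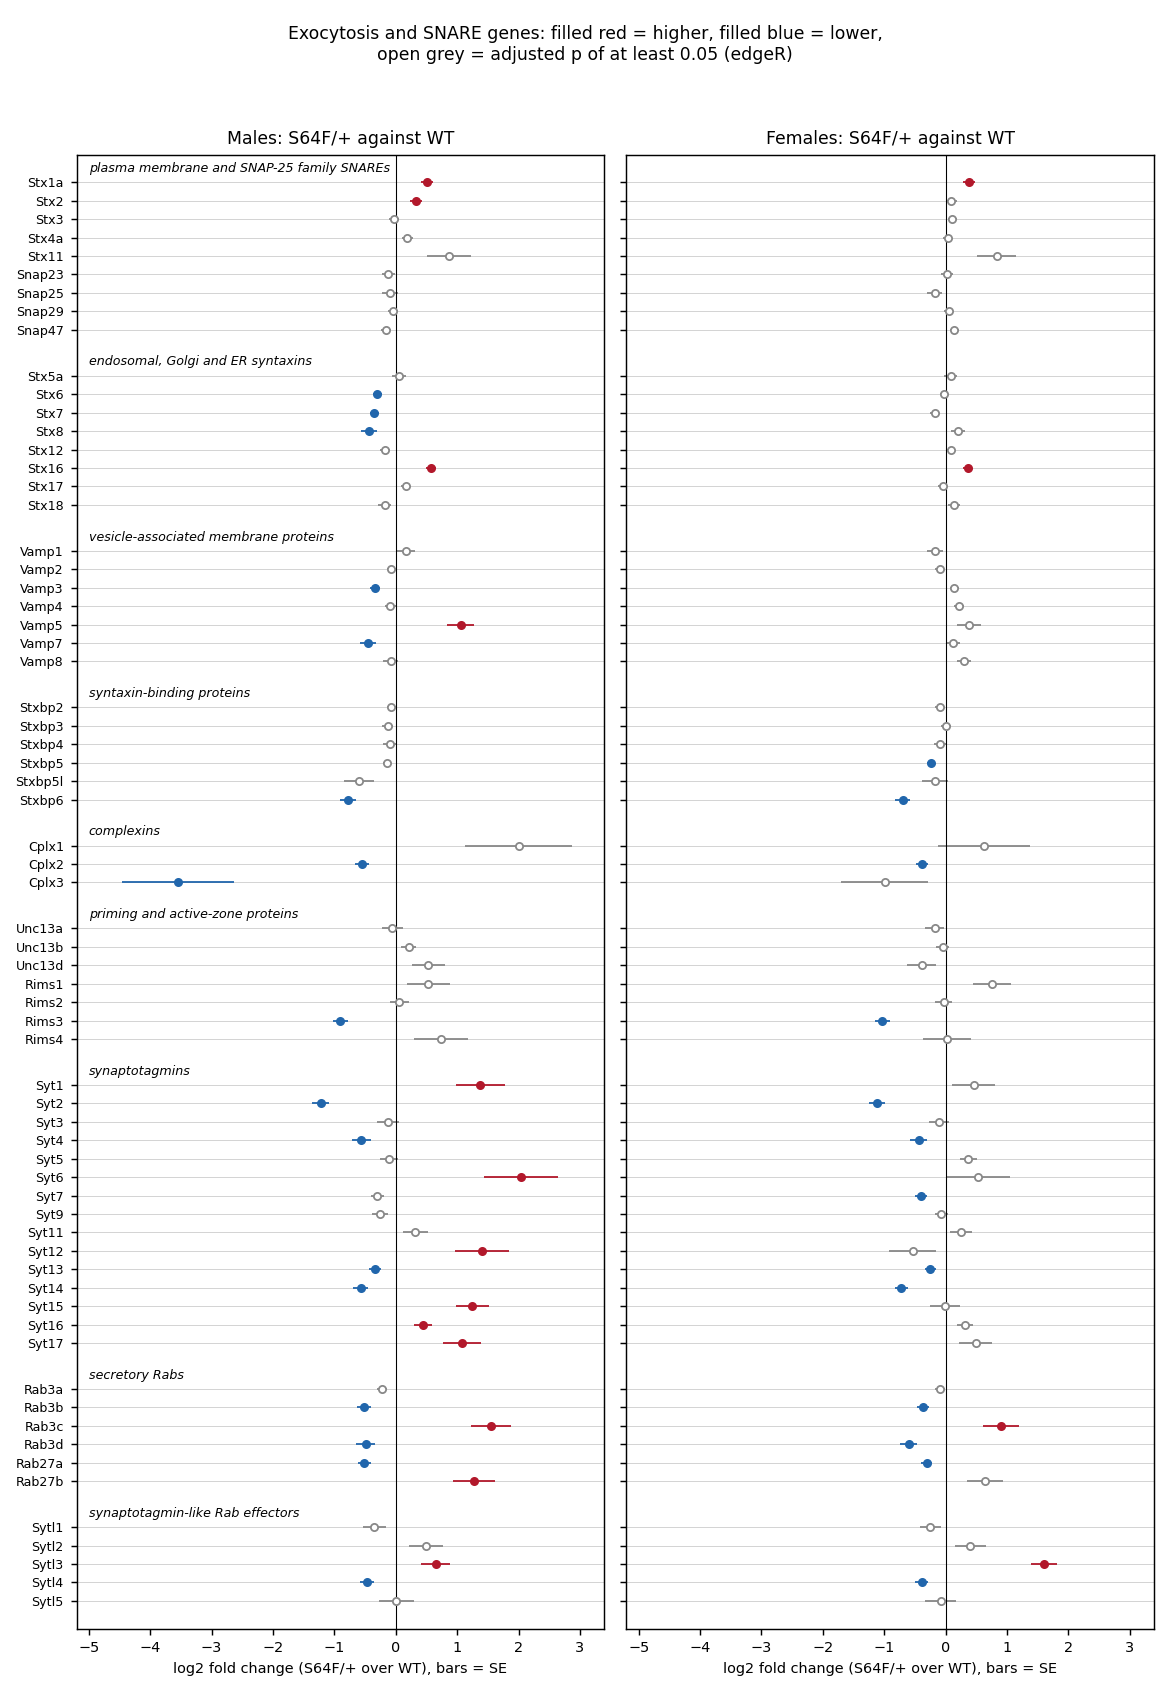
Log2 fold change of 66 of the 68 tested members (S64F/+ over WT, bars are SE) in males on the left and females on the right, ordered by role. Filled points passed an adjusted p of 0.05 (13 red and 17 blue in males, 4 red and 13 blue in females), and the widest bars in males are those of Cplx3 (SE 0.91), Cplx1 (0.87) and Syt6 (0.61).

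In both sexes 12 members fell and 4 rose. Called falls in both sexes made up 17.6% of the members, against 5.78% of all tested genes, and called rises 5.88%, against 4.23%. Of the 12 that fell, 11 are described here: Cplx2, Rab27a, Rab3b, Rab3d, Rims3, Stxbp6, Syt13, Syt14, Syt2, Syt4 and Sytl4, with log2 fold changes of -0.34 to -1.22 in males and -0.25 to -1.12 in females. The 4 that rose were Rab3c, Stx16, Stx1a and Sytl3. No member was called in opposite directions, and 34 were called in neither sex. The male and female comparisons share no libraries, and 47 of 68 members had the same sign in both, beside 11764 of 18364 tested genes.

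**Figure D2:**
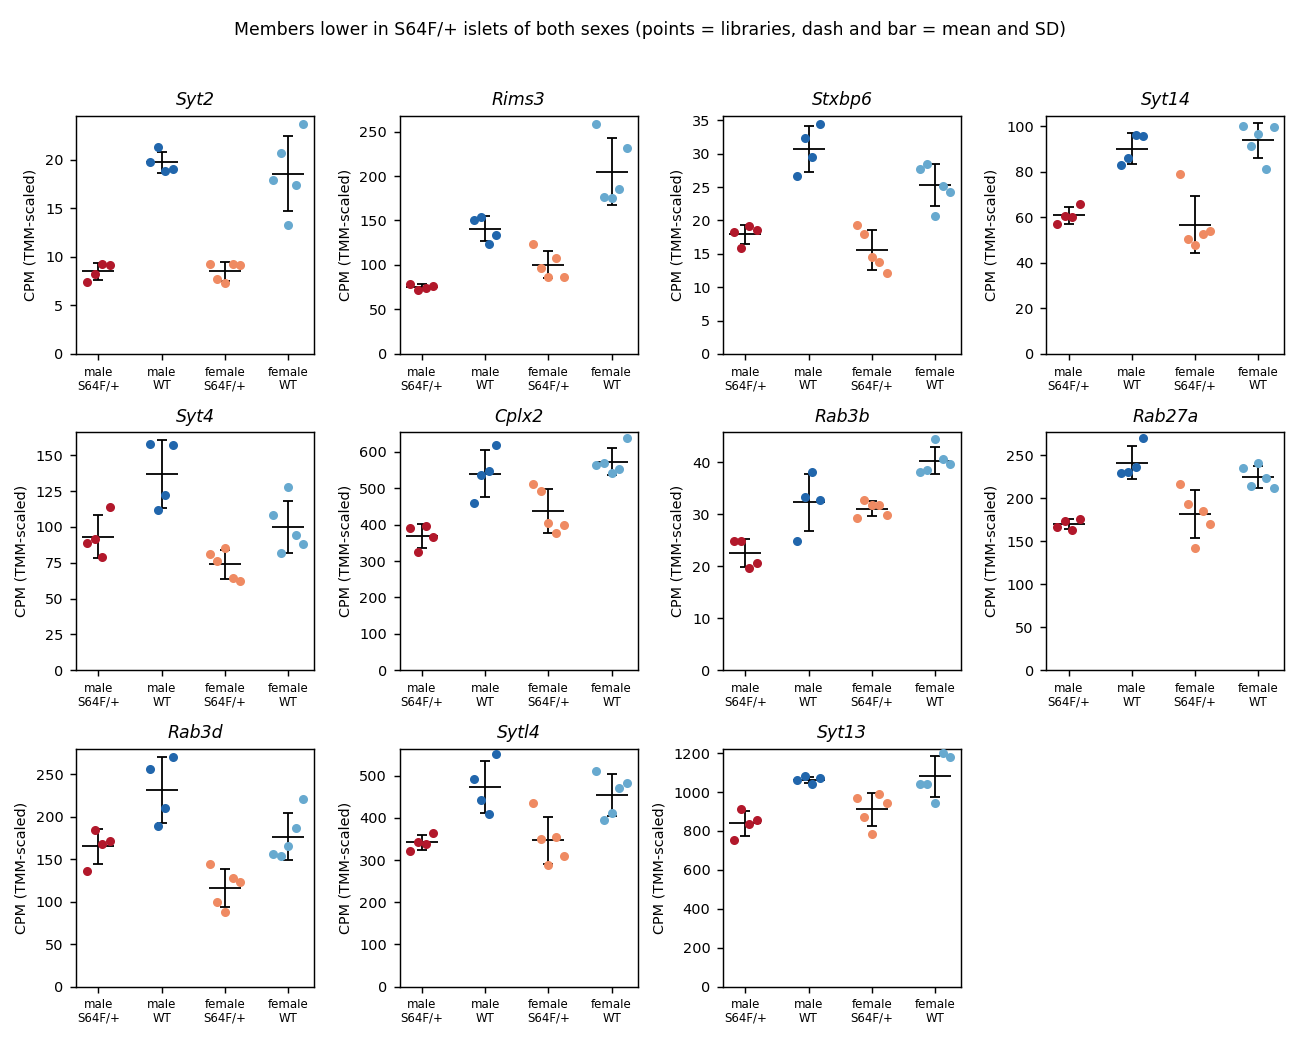
TMM-scaled CPM of 11 members that fell in S64F/+ islets of both sexes, 1 point per library, with mean and SD, each axis from 0. For Syt2 the S64F/+ libraries lie between 7.27 and 9.3 CPM and the WT libraries between 13.3 and 23.7, whereas for Syt4 the groups overlap in both sexes.

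Among the plasma membrane SNAREs, Stx1a rose while its partner Snap25 did not pass. Stx1a (ENSMUSG00000007207, GRCm38 chromosome 5, 135023482 to 135051100, plus strand) encodes the syntaxin that pairs with SNAP-25 in neuroendocrine fusion. It had 26.9, 25.5, 20.5 and 25.1 CPM in male S64F/+ islets, against 14.3, 18.9, 19.6 and 16 CPM in male WT islets. In females it had 23.3, 25, 25.8, 25.6 and 27.7 CPM in S64F/+ islets, against 19, 20, 19.9, 19.1 and 20 CPM in WT islets. Every S64F/+ library was above every WT library of its sex. The log2 fold change was 0.51 ± 0.10 in males (edgeR adjusted p 0.000861) and 0.38 ± 0.09 in females (edgeR adjusted p 0.00496). Snap25, the other plasma membrane SNARE, had 144 ± 14.8 CPM in male S64F/+ and 154 ± 6.99 CPM in male WT islets, and 126 ± 25.5 and 144 ± 19 CPM in the female groups in the same order. Its log2 fold changes, -0.10 ± 0.13 and -0.18 ± 0.12, did not pass (edgeR adjusted p 0.638 and 0.293), and the male sign turned to 0.12 with library totals.

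The ratio of Stx1a to Snap25 in CPM per kb of exon, which does not depend on library scaling, was 0.433 ± 0.0407 in male S64F/+ and 0.283 ± 0.0398 in male WT islets, and 0.532 ± 0.12 in female S64F/+ and 0.352 ± 0.046 in female WT islets. The ranges were 0.395 to 0.481 and 0.237 to 0.332 in males, so they did not overlap, and 0.404 to 0.661 and 0.307 to 0.422 in females, where they did. The ratio was picked after the values had been seen and carries no test.

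Stx2, another plasma membrane syntaxin, rose in males, to 21.4 ± 2.01 CPM in S64F/+ against 17.1 ± 0.993 CPM in WT islets, a call lost without male WT 4 or male S64F/+ 1 or 2 (edgeR adjusted p up to 0.0623). Stx3, Stx4a, Stx11, Snap23, Snap29 and Snap47 passed in neither sex.

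Among syntaxins of the Golgi and endosomes, Stx16 rose in both sexes and 3 endosomal members fell in males. Of 8 Golgi, endosomal and ER syntaxins tested, 12.5% were higher and 37.5% lower in males, against 15.4% and 12.3% of all tested genes. In females the shares were 12.5% and 0%, against 10.2% and 11%. Stx16, a SNARE of the trans-Golgi network, had 113, 120, 121 and 127 CPM in male S64F/+ islets, against 84.6, 74, 78.4 and 86.7 CPM in male WT islets (log2 fold change 0.57 ± 0.08, edgeR adjusted p 3.99e-05). In females, S64F/+ islets had 110, 98.6, 105, 97.4 and 105 CPM, against 89, 86.9, 81.3, 71.7 and 72.2 CPM in female WT islets (0.36 ± 0.07, edgeR adjusted p 0.00127). The groups did not overlap in either sex. Stx6, of the trans-Golgi and endosomes, was 46.3 ± 3.64 CPM in male S64F/+ and 56.9 ± 1.71 CPM in male WT islets. Stx7, a late endosomal syntaxin, was 76.8 ± 1.39 CPM in male S64F/+ and 98 ± 2.94 CPM in male WT islets. In females the log2 fold changes were -0.03 for Stx6 and -0.18 for Stx7 and were not called. The female fall of Stx7 passed with DESeq2 (adjusted p 0.028). Neither gene passed the test for a difference between the sexes. Stx8, which works with Stx7, was 12.5 ± 0.672 CPM in male S64F/+ and 16.9 ± 1.14 CPM in male WT islets, a call lost without male WT 4 or male S64F/+ 3 (edgeR adjusted p up to 0.0519). Stx5a, Stx12, Stx17 and Stx18 passed in neither sex.

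Vamp2, the SNARE of insulin granules and synaptic vesicles, did not pass in either sex. It had 222, 227, 197 and 209 CPM in male S64F/+ islets, against 256, 227, 207 and 208 CPM in male WT islets, and averaged 224 ± 16.1 CPM in female S64F/+ and 240 ± 9.25 CPM in female WT islets (SD, n = 5 each). Its log2 fold changes were -0.07 ± 0.08 and -0.10 ± 0.07 (edgeR adjusted p 0.553 and 0.378), and the male sign turned to 0.15 with library totals. Vamp3 and Vamp7, relatives on endosomes, fell in males. Vamp3 (cellubrevin) was 58.5 ± 2.15 CPM in male S64F/+ and 74.2 ± 5.82 CPM in male WT islets, and Vamp7, of late endosomes and lysosomes, was 39.8 ± 3.83 and 54.6 ± 7.97 CPM in the same order. Without male WT 4 Vamp7 no longer passed (edgeR adjusted p 0.0546). Vamp5, first described in muscle, rose in males. It had 6.98, 5.37, 4.85 and 4.96 CPM in S64F/+ islets, against 2.38, 3.83, 2.2 and 2.2 CPM in WT islets (log2 fold change 1.06 ± 0.22, edgeR adjusted p 0.00126). In females Vamp5 was 4.27 ± 1.14 CPM in S64F/+ and 3.26 ± 0.365 CPM in WT islets and did not pass. Vamp1, Vamp4 and Vamp8 passed in neither sex.

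Stxbp6 fell in both sexes and Stxbp5 in females. Stxbp6 (amisyn), a SNARE-motif protein that binds syntaxin 1, had 18.2, 15.8, 19.1 and 18.5 CPM in male S64F/+ islets, against 26.6, 32.4, 29.5 and 34.5 CPM in male WT islets (log2 fold change -0.78 ± 0.13, edgeR adjusted p 0.000298). In females, S64F/+ islets had 19.3, 18, 14.5, 13.8 and 12.1 CPM, against 27.7, 28.5, 20.6, 25.2 and 24.3 CPM in female WT islets (-0.70 ± 0.12, edgeR adjusted p 0.000404). The groups were apart in both sexes. Stxbp5 (tomosyn), an inhibitor of SNARE assembly, fell in females to 44.8 ± 4.39 CPM in S64F/+ against 52.9 ± 3.49 CPM in WT islets (edgeR adjusted p 0.0139), a call lost with library totals (0.085) and in a fit of the 2 female groups only. Its relative Stxbp5l, also counted among the inhibitors, was 18.7 ± 2.53 CPM in male S64F/+ and 28.3 ± 6.1 CPM in male WT islets, and 18.6 ± 7.38 and 21.2 ± 0.695 CPM in the female groups in the same order. It passed in males with DESeq2 (adjusted p 0.046) and in an edgeR fit of the 2 male groups only (0.0212), but not in the fit of all groups (log2 fold change -0.60 ± 0.24, edgeR adjusted p 0.0708), nor in females (-0.18 ± 0.21, edgeR adjusted p 0.601). Stxbp2, Stxbp3 and Stxbp4 passed in neither sex.

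Cplx2, a clamp and activator of the SNARE complex, fell in both sexes. It had 391, 324, 397 and 365 CPM in male S64F/+ islets, against 460, 537, 547 and 619 CPM in male WT islets (log2 fold change -0.55 ± 0.11, edgeR adjusted p 0.00117). Female S64F/+ islets had 513, 494, 406, 377 and 398 CPM, against 564, 570, 543, 552 and 638 CPM in female WT islets (-0.39 ± 0.10, edgeR adjusted p 0.00925). Both pairs of groups were apart. Cplx1, the complexin best known from neurons, was far lower and uneven between libraries. It had 8.69, 12.1, 4.95 and 7.41 CPM in male S64F/+ islets, against 0.498, 3.3, 3.06 and 1.18 CPM in male WT islets, and these groups were apart. The test still did not pass (log2 fold change 2.00 ± 0.87, edgeR adjusted p 0.103), though it did with DESeq2 (adjusted p 0.0446) and in an edgeR fit of the 2 male groups only. In females Cplx1 had 1.85, 14.7, 14.9, 2.58 and 0.568 CPM in S64F/+ islets, against 2.35, 5.69, 7.22, 1.56 and 5.29 CPM in WT islets, so that female S64F/+ libraries 2 and 3 stood above all others (0.63 ± 0.75, edgeR adjusted p 0.605). Cplx3 was near absent, with 0.0265 ± 0.0406 CPM in male S64F/+ and 0.423 ± 0.0795 CPM in male WT islets, and its fall in males (log2 fold change -3.55 ± 0.91, edgeR adjusted p 0.00662) rests on 7 counts in the 4 S64F/+ and 49 in the 4 WT libraries.

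Rims3 was the 1 priming gene called among the 4 Rims and 3 Unc13 genes tested, and it fell in both sexes. That is 14.3% lower in each sex, near the 12.3% of all tested genes in males and 11% in females. Rims3 (ENSMUSG00000032890, GRCm38 chromosome 4, 120854816 to 120896579, plus strand) encodes a short RIM protein of the active zone. It had 78.2, 71.4, 74.6 and 76.6 CPM in male S64F/+ islets, against 150, 154, 124 and 134 CPM in male WT islets. In females, S64F/+ islets had 123, 96.9, 86.7, 108 and 86.7 CPM, against 258, 176, 175, 185 and 231 CPM in female WT islets. The groups were apart in both sexes, with log2 fold changes of -0.90 ± 0.13 in males (edgeR adjusted p 5.78e-05) and -1.03 ± 0.12 in females (edgeR adjusted p 5.34e-06). Rims3 made up 59.5 ± 1.75% of the CPM per kb summed over the 4 Rims genes in male S64F/+ and 74.7 ± 2.23% in male WT islets, and 68 ± 2.97% in female S64F/+ and 80.7 ± 2.72% in female WT islets.

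Rims2, the long RIM isoform gene of beta cells, was 60.6 ± 4.76 CPM in male S64F/+ and 58 ± 3.1 CPM in male WT islets, and 56.8 ± 15.9 CPM in female S64F/+ and 58 ± 3.32 CPM in female WT islets. Its log2 fold changes of 0.06 ± 0.15 and -0.03 ± 0.14 did not pass (edgeR adjusted p 0.807 and 0.908). Unc13a (Munc13-1), the main priming factor, was 171 ± 23.9 CPM in male S64F/+ and 179 ± 18 CPM in male WT islets, and 150 ± 34.7 CPM in female S64F/+ and 171 ± 29.5 CPM in female WT islets. Neither sex passed (log2 fold changes -0.06 ± 0.17 and -0.18 ± 0.15, edgeR adjusted p 0.82 and 0.414). Unc13b, Unc13d, Rims1 and Rims4 also passed in neither sex.

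The synaptotagmins split, with 6 higher and 4 lower of 15 tested in males, and none higher and 5 lower in females. That is 40% higher and 26.7% lower in males, against 15.4% and 12.3% of all tested genes, and 0% higher and 33.3% lower in females, against 10.2% and 11%. Syt2 (ENSMUSG00000026452, GRCm38 chromosome 1, 134646677 to 134762593, plus strand), a fast calcium sensor of synapses, showed the largest fall in both sexes among called members with a mean of at least 1 CPM. It had 7.45, 8.22, 9.24 and 9.12 CPM in male S64F/+ islets, against 19.8, 21.3, 18.9 and 19.1 CPM in male WT islets. Female S64F/+ islets had 9.3, 7.71, 7.27, 9.27 and 9.16 CPM, against 17.9, 20.7, 13.3, 17.4 and 23.7 CPM in female WT islets. The groups were apart in both sexes, with log2 fold changes of -1.22 ± 0.14 in males (edgeR adjusted p 5.45e-06) and -1.12 ± 0.13 in females (edgeR adjusted p 4.89e-06).

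Syt14, a synaptotagmin not thought to bind calcium, had 56.9, 60.7, 60.1 and 66 CPM in male S64F/+ islets, against 83, 85.9, 96.3 and 95.6 CPM in male WT islets (log2 fold change -0.57 ± 0.12, edgeR adjusted p 0.00185). In females, S64F/+ islets had 78.9, 50.4, 47.9, 52.5 and 54.2 CPM, against 100, 91.4, 96.7, 81.3 and 99.6 CPM in female WT islets (-0.72 ± 0.11, edgeR adjusted p 0.000116). Syt4, which tunes the calcium sensitivity of insulin release as mouse beta cells mature, had 88.6, 91.7, 78.7 and 114 CPM in male S64F/+ islets, against 158, 112, 122 and 157 CPM in male WT islets (-0.56 ± 0.15, edgeR adjusted p 0.0103). In females it had 81.1, 76, 85.4, 64.5 and 62.2 CPM in S64F/+ islets, against 108, 81.7, 128, 94.4 and 87.8 CPM in WT islets (-0.44 ± 0.14, edgeR adjusted p 0.0282). The Syt14 groups were apart and the Syt4 groups overlapped, and the female Syt4 call was lost without female WT 1 or 3 or female S64F/+ 4 or 5 (edgeR adjusted p up to 0.083).

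Syt7, a high-affinity calcium sensor of insulin granules, had 303, 317, 338 and 320 CPM in male S64F/+ islets, against 424, 397, 373 and 374 CPM in male WT islets. These groups were apart, but the male test did not pass (log2 fold change -0.30 ± 0.11, edgeR adjusted p 0.0629), though it did in a fit of the 2 male groups only. In females Syt7 had 325, 287, 195, 299 and 311 CPM in S64F/+ islets, against 360, 393, 374, 350 and 394 CPM in WT islets, and passed (-0.40 ± 0.10, edgeR adjusted p 0.00949). Syt13, the most abundant member, was 839 ± 66.6 CPM in male S64F/+ and 1060 ± 16.6 CPM in male WT islets (-0.34 ± 0.10, edgeR adjusted p 0.0118). In females it was 911 ± 84.8 CPM in S64F/+ and 1080 ± 107 CPM in WT islets (-0.25 ± 0.09, edgeR adjusted p 0.0459), and it stayed past the threshold in 4 of 18 fits that each left out 1 library, those without male S64F/+ 1, female S64F/+ 1 or 4, or female WT 3 (highest 0.136, without female S64F/+ 2). With library totals the Syt13 call was lost in both sexes (edgeR adjusted p 0.406 in males and 0.0583 in females). The female Syt13 call was also lost with RLE scaling, with no filter and in a fit of the 2 female groups only. Syt5 was 57.1 ± 11.4 CPM in female S64F/+ and 44.2 ± 6.67 CPM in female WT islets, with an edgeR adjusted p of 0.0614, or 0.0229 when same-numbered female libraries were paired in a replicate block.

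The synaptotagmins that rose in males were of low level. Syt6 had 7.08, 8.93, 5.21 and 6.26 CPM in male S64F/+ islets, against 0.276, 2.89, 2.13 and 1.18 CPM in male WT islets (log2 fold change 2.04 ± 0.61, edgeR adjusted p 0.0202), and no longer passed when male WT 4 was left out (0.0636). Syt1, the fast calcium sensor of synapses and chromaffin cells, had 22.9, 35.1, 22.6 and 22 CPM in male S64F/+ islets, against 7.68, 11.1, 12 and 8.32 CPM in male WT islets (1.38 ± 0.40, edgeR adjusted p 0.0163). That call was lost without male WT 1 or 4 or male S64F/+ 2 (edgeR adjusted p up to 0.0508). The groups were apart for both genes.

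Syt15, which lacks calcium-binding residues, had 6.56, 4.48, 7.14 and 4.06 CPM in male S64F/+ islets, against 1.94, 2.72, 2.63 and 2.01 CPM in male WT islets (1.25 ± 0.27, edgeR adjusted p 0.00173). Syt17 had 5.94, 7.78, 3.71 and 4.3 CPM in male S64F/+ islets, against 2.05, 3.42, 2.69 and 2.05 CPM in male WT islets (1.08 ± 0.31, edgeR adjusted p 0.0135), a call lost without male S64F/+ 2 (edgeR adjusted p 0.0573). Both pairs of groups were apart. Syt12 was 1.16 ± 0.314 CPM in male S64F/+ and 0.413 ± 0.283 CPM in male WT islets, and Syt16 was 8.03 ± 1.38 and 5.94 ± 0.793 CPM in the same order. The Syt12 call was lost without male WT 1, 3 or 4 or male S64F/+ 2 (edgeR adjusted p up to 0.0718), and that of Syt16 without male WT 1, 2 or 3 or male S64F/+ 2, 3 or 4 (up to 0.135). Genes on the opposite strand overlap Syt12 by 950, Stx18 by 908 and 574, Syt4 by 566 and Syt6 by 505 exon bases. The overlap is 495 bases for Unc13a, 384 for Syt7, 317 for Rab3b, 307 for Snap47 and 183 for Syt16. Smaller overlaps are not listed, and the strand setting of the counts is not stated. Syt3, Syt9 and Syt11 passed in neither sex.

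Of the 6 granule Rabs tested, 3 fell in both sexes and Rab3c rose in both. In males 33.3% were higher and 50% lower, against 15.4% and 12.3% of all tested genes. In females the shares were 16.7% and 50%, against 10.2% and 11%. Rab27a, the GTPase that docks insulin granules through Sytl4, had 167, 173, 163 and 176 CPM in male S64F/+ islets, against 229, 230, 236 and 270 CPM in male WT islets (log2 fold change -0.51 ± 0.10, edgeR adjusted p 0.00102). Female S64F/+ islets had 217, 193, 142, 185 and 170 CPM, against 235, 214, 241, 223 and 212 CPM in female WT islets (-0.31 ± 0.09, edgeR adjusted p 0.0183). The male groups were apart and the female groups overlapped through library 1 of the S64F/+ islets. With library totals the Rab27a call was lost in both sexes (edgeR adjusted p 0.12 in males and 0.0627 in females). The female call was also lost in a fit of the 2 female groups only. Rab3b had 24.9, 24.8, 19.7 and 20.7 CPM in male S64F/+ islets, against 24.9, 33.4, 38.1 and 32.8 CPM in male WT islets (-0.52 ± 0.11, edgeR adjusted p 0.00136), with WT library 1 at the level of the S64F/+ libraries. In females Rab3b was 31.1 ± 1.49 CPM in S64F/+ and 40.3 ± 2.52 CPM in WT islets (-0.37 ± 0.10, edgeR adjusted p 0.00961), with no overlap.

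Rab3d had 144, 100, 87.7, 128 and 123 CPM in female S64F/+ islets, against 156, 154, 166, 187 and 221 CPM in female WT islets (-0.60 ± 0.14, edgeR adjusted p 0.00487). In males it was 165 ± 20.9 CPM in S64F/+ and 232 ± 38.1 CPM in WT islets (-0.49 ± 0.15, edgeR adjusted p 0.025), a call lost without male WT 1 or 4 or male S64F/+ 1 (up to 0.0911). Rab3a, the Rab3 best known from synaptic vesicles, had 70.1, 81.3, 64.7 and 74.5 CPM in male S64F/+ islets, against 91.9, 82.2, 85 and 81.8 CPM in male WT islets. It stood at the threshold and did not pass (-0.23 ± 0.08, edgeR adjusted p 0.05, or 0.0448 in a fit of the 2 male groups only), although the groups were apart by a narrow gap. In females Rab3a was 75.5 ± 6.8 CPM in S64F/+ and 80.1 ± 5.84 CPM in WT islets (-0.09 ± 0.08, edgeR adjusted p 0.463).

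Rab3c had 34.1, 39.3, 37.2 and 40.8 CPM in male S64F/+ islets, against 4.15, 12.5, 17.8 and 17 CPM in male WT islets (1.55 ± 0.33, edgeR adjusted p 0.00249), and the groups were apart. In females, S64F/+ islets had 33.9, 36, 36.1, 23.6 and 20.8 CPM, against 12.7, 18.5, 23.1, 10.9 and 15.6 CPM in female WT islets (0.90 ± 0.29, edgeR adjusted p 0.0386). The female groups overlapped, and the female test no longer passed without male S64F/+ 2 or 4, female S64F/+ 1, 2 or 3, or female WT 1, 2, 4 or 5 (up to 0.0941), with library totals (0.0609) or with no filter. Rab27b, the close relative of Rab27a, had 12.5, 8.37, 6.95 and 8.31 CPM in male S64F/+ islets, against 2.65, 2.74, 3.69 and 5.93 CPM in male WT islets (1.27 ± 0.34, edgeR adjusted p 0.01). In females Rab27b was 6.14 ± 2.32 CPM in S64F/+ and 3.94 ± 1.42 CPM in WT islets and did not pass (0.64 ± 0.30, edgeR adjusted p 0.144).

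Among the Rab effectors, Sytl4 fell and Sytl3 rose in both sexes. Sytl4 (granuphilin), which holds granules at syntaxin 1, had 322, 344, 339 and 365 CPM in male S64F/+ islets, against 493, 442, 410 and 551 CPM in male WT islets (log2 fold change -0.47 ± 0.12, edgeR adjusted p 0.00716). Female S64F/+ islets had 435, 349, 289, 354 and 309 CPM, against 511, 395, 411, 472 and 482 CPM in female WT islets (-0.39 ± 0.11, edgeR adjusted p 0.0152). The male groups were apart, and in females S64F/+ library 1 lay inside the WT range. Sytl3 had 12.2, 8.68, 7.06, 6.56 and 7.47 CPM in female S64F/+ islets, against 1.73, 2.91, 3.9, 3.05 and 2.41 CPM in female WT islets (1.60 ± 0.21, edgeR adjusted p 3.17e-05). In males it had 4.55, 4.29, 4.08 and 4.42 CPM in S64F/+ islets, against 2.32, 3.73, 2.16 and 2.77 CPM in WT islets, and the test passed narrowly (0.65 ± 0.24, edgeR adjusted p 0.0485). It held in 6 of 18 fits that each left out 1 library, those without male WT 2, female S64F/+ 1, 3 or 4, or female WT 1 or 3 (highest 0.139, without male WT 3). Sytl1, Sytl2 and Sytl5 passed in neither sex.

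**Figure D3:**
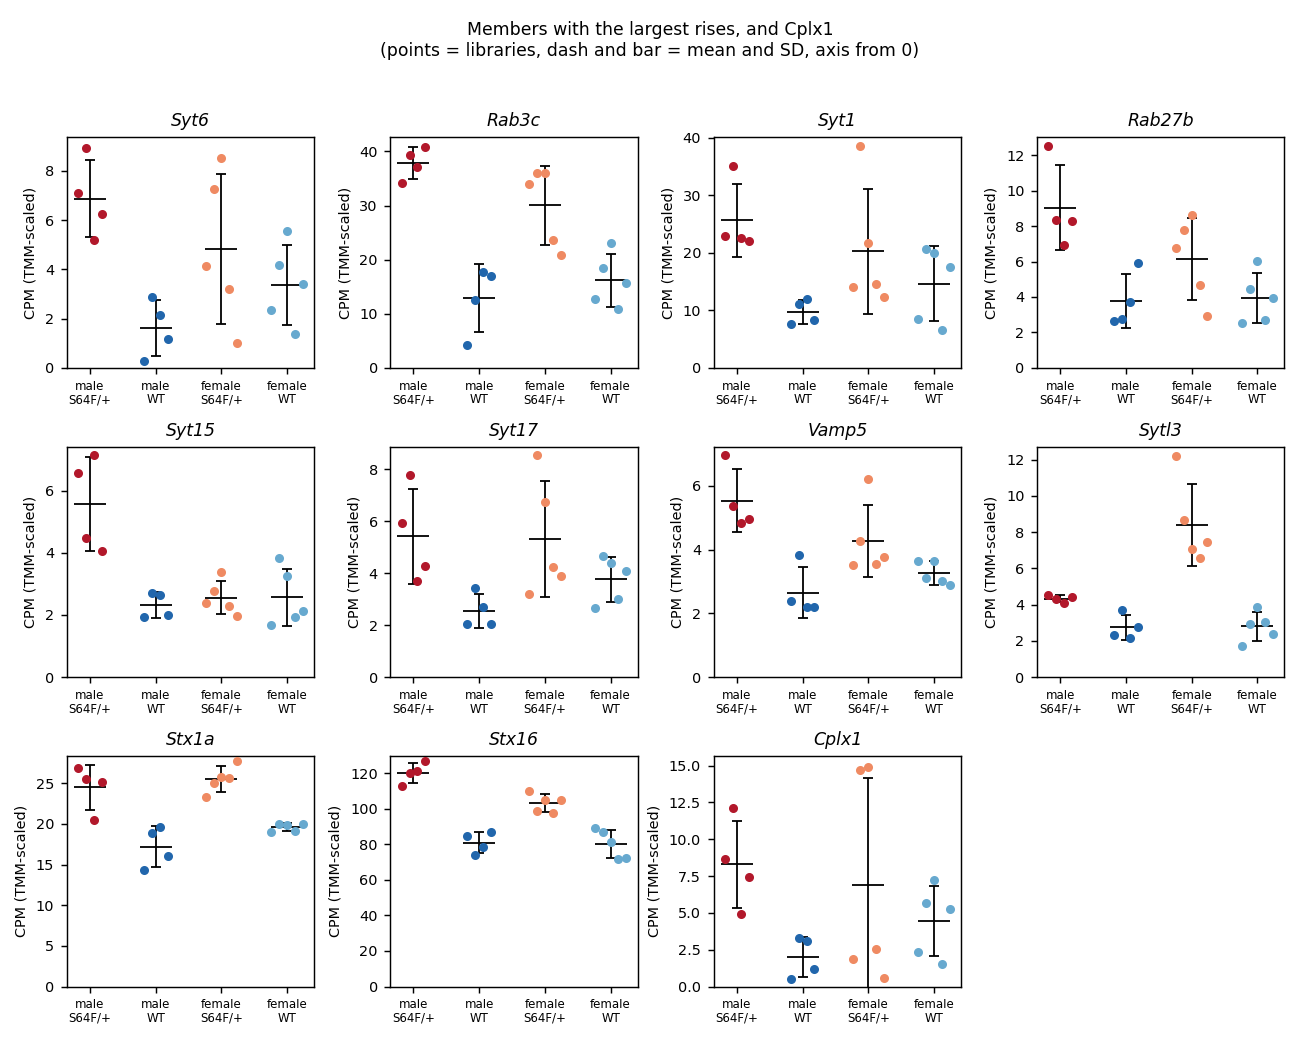
TMM-scaled CPM of 10 members called higher in S64F/+ islets of at least 1 sex, and of Cplx1, 1 point per library, with mean and SD, each axis from 0 (the lower SD bar of Cplx1 in female S64F/+ islets ends at the axis). Stx1a and Stx16 show tight S64F/+ groups above WT in both sexes, whereas Syt6, Syt17 and Cplx1 have 2 high libraries among the 5 female S64F/+ libraries.

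In males, with TMM scaling, members that fell had a higher median level than members that rose. The median level was 0.93 CPM per kb for the 14 that rose in males, 19.2 for the 18 that fell and 7.88 for the 36 that did not pass. Of the 14, 8 had a level under 1 CPM per kb. Over all tested genes the male medians were 1.11 CPM per kb for those higher, 7.47 for those lower and 3.03 for those that did not pass. In females the medians were 5.08, 33 and 5.38 CPM per kb for the members and 5.52, 5.56 and 2.39 for all tested genes. The male difference depended on scaling: the 4 members still lower with library totals had levels of 16.6 (Rims3), 4.18 (Stxbp6), 1.81 (Syt2) and 0.067 (Cplx3) CPM per kb. With TMM scaling, 7 of the 10 members with the highest levels fell in both sexes. In at least 1 sex 8 of them fell, and none rose in either. Over all tested genes of any level, 5.78% fell in both sexes. The 4 members still lower in males with library totals are not among these 10.

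**Figure D4:**
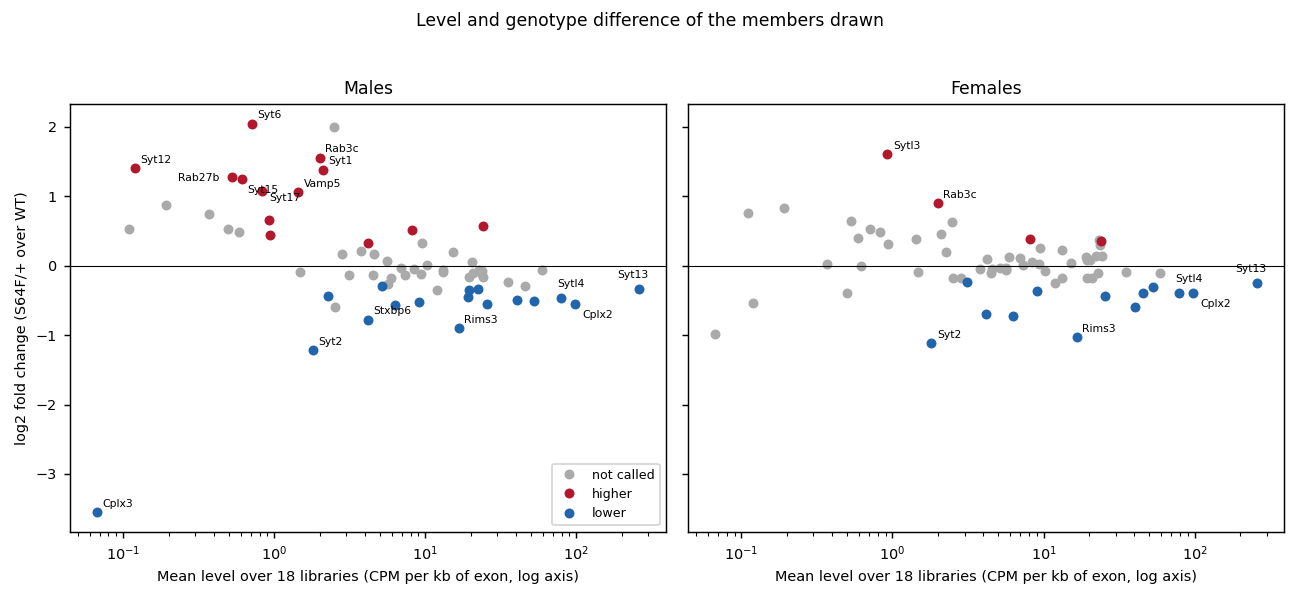
Mean level over the 18 libraries (CPM per kb of exon, log axis) against log2 fold change (S64F/+ over WT), 1 point per member drawn (66), males on the left and females on the right. In males blue points (lower) lie mainly to the right and red points (higher) to the left, with medians of 19.2 and 0.93 CPM per kb. In females the medians were 33 for members lower, 5.08 for members higher and 5.38 for members not called. All medians are over the tested members, drawn or not.

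Markers of several non-endocrine cell types were higher in male S64F/+ islets, with 5 of 10 Schwann and glial, 9 of 10 stellate and fibroblast, 6 of 8 endothelial, 5 of 8 ductal and 5 of 10 macrophage markers called higher. In females 1, 1, 0, 3 and 4 of these were called higher, and 1 macrophage marker was called lower in males. Of 9 neuron markers, 1 was called higher (Nefm) and 1 lower (Th) in each sex, and none of 9 acinar markers was called. Nefm was 38.5 ± 2.9 CPM in male S64F/+ and 23.4 ± 5.71 CPM in male WT islets, and 40.6 ± 4.4 and 21.2 ± 5.91 CPM in the female groups. Th was 7.63 ± 1.71 and 45.6 ± 6.54 CPM in males, and 8.98 ± 3.39 and 51.1 ± 5.57 CPM in females, in the same order. The neuron sums below include the fall of Th. The summed level of 10 Schwann and glial markers was 85.5 to 101 CPM in male S64F/+ and 37.4 to 43 CPM in male WT islets, and that of 9 neuron markers 176 to 250 and 144 to 192 CPM in the same order. In females the Schwann sum was 56 to 128 CPM in S64F/+ and 34.7 to 53.8 CPM in WT islets, and the neuron sum 123 to 301 and 156 to 227 CPM. Gfra3, the 1 Schwann marker called in females, was 30.1 ± 5.22 CPM in female S64F/+ and 11.8 ± 2.03 CPM in female WT islets. Female S64F/+ libraries 2 and 3, which were high in Cplx1, Syt6 and Syt17, had Schwann sums of 92.9 and 128 CPM and neuron sums of 258 and 301 CPM, and the 3 other female S64F/+ libraries had at most 61.3 and 143 CPM. Stellate and fibroblast markers summed to 1610 to 2450 CPM in male S64F/+ and 244 to 566 CPM in male WT islets, and endothelial markers to 845 to 998 and 435 to 593 CPM. In females the stellate sum was 301 to 1080 CPM in S64F/+ and 319 to 881 CPM in WT islets, and the endothelial sum 517 to 708 and 483 to 705 CPM. Ductal markers summed to 708 to 841 CPM in male S64F/+ and 461 to 482 CPM in male WT islets, and to 519 to 592 and 447 to 506 CPM in the female groups in the same order. Most of the male gap was Spp1, at 304 ± 41.5 CPM in S64F/+ and 47.9 ± 11 CPM in WT islets. Krt7, also a large part of the sum, was 189 ± 13.1 and 223 ± 8.88 CPM and was not called. Macrophage sums were 117 to 150 CPM in male S64F/+ and 88.2 to 129 CPM in male WT islets, and 94.3 to 170 and 77.2 to 112 CPM in the female groups. The male sums include the fall of C1qa, the marker called lower, beside the 5 called higher. C1qa was 37.7 ± 4.88 CPM in male S64F/+ and 68.7 ± 17.6 CPM in male WT islets. Acinar sums varied widely within groups, from 4140 to 17400 CPM in male S64F/+ and 2780 to 26900 CPM in male WT islets. In the female groups they were 15400 to 36600 and 11200 to 42800 CPM. The absence of acinar calls therefore does not show that acinar RNA was even, and its part in the member results was not tested. No gene of the lists above was at 0 counts in any group. Mcpt4, of the lymphocyte and mast cell list, was at 0 counts in male WT and female WT islets. Of 5 tested lymphocyte and mast cell markers, 3 were called higher and 1 lower in males, and 1 higher and 1 lower in females. The part of these cells in the rises of Syt1, Syt6, Syt15, Syt17 and the other scarce members was not tested.

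Of the endocrine markers, 8 of 9 beta-cell markers were called lower in males and 7 in females. None of 6 alpha-cell markers was called in males and all 6 were higher in females, 4 of 6 delta-cell markers were higher in each sex, and 1 of 3 PP-cell markers was higher in males and 3 in females. Alpha-cell markers summed to 35900 to 60100 CPM in male S64F/+ and 34400 to 43400 CPM in male WT islets, and to 59700 to 82800 CPM in female S64F/+ and 34100 to 42400 CPM in female WT islets. Delta-cell markers summed to 3620 to 5620 CPM in male S64F/+ and 2600 to 5170 CPM in male WT islets, and to 6050 to 8200 CPM in female S64F/+ and 2730 to 4200 CPM in female WT islets. Beta-cell markers summed to 126000 to 141000 CPM in male S64F/+ and 212000 to 289000 CPM in male WT islets, and to 132000 to 244000 and 167000 to 307000 CPM in the female groups in the same order. PP-cell markers summed to 4810 to 8220 CPM in male S64F/+ and 1870 to 5100 CPM in male WT islets, and to 5880 to 16600 and 3500 to 7210 CPM in the female groups. The alpha, delta and PP sums overlapped in males, and the beta and PP sums in females. The part of these cells in the falls of abundant members was not tested.

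The test of whether the genotype difference differed between the sexes called 3 of the 68 members, against 4.47% of all tested genes, 1 with the male difference higher (1.47%, against 2.87% of all tested genes) and 2 with it lower (2.94%, against 1.6%). With library totals, 97.2% of all called genes had the higher male difference, against 64.2% with TMM. Vamp3 had 58.9, 55.6, 60.8 and 58.9 CPM in male S64F/+ islets, against 69.3, 69.7, 76.2 and 81.5 CPM in male WT islets, and 61.2, 66.6, 76.2, 62.1 and 59.4 CPM in female S64F/+ islets, against 58.2, 57.6, 62, 60.4 and 57.4 CPM in female WT islets. Its log2 fold changes were -0.34 ± 0.08 in males and 0.14 ± 0.07 in females, a difference of -0.48 ± 0.10 (edgeR adjusted p 0.0175). The difference stayed past the threshold in all 18 fits that left out 1 library, but was -0.23 with library totals (edgeR adjusted p 0.186).

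Stx8 and Syt15 passed by narrow margins. The Stx8 difference was -0.64 ± 0.17 (edgeR adjusted p 0.0449), from -0.44 ± 0.13 in males and 0.20 ± 0.11 in females. It held in 4 of 18 fits that each left out 1 library, those without male WT 2, female S64F/+ 1 or 2, or female WT 4, and missed the threshold in the fit with a replicate block (edgeR adjusted p 0.0509). The Syt15 difference was 1.26 ± 0.36 (edgeR adjusted p 0.0497), from 1.25 ± 0.27 in males and -0.01 ± 0.24 in females, and held in 5 of 18 such fits, those without male WT 2, female S64F/+ 1 or 3, or female WT 1 or 4. Syt12 had a difference of 1.94 ± 0.59 that did not pass (edgeR adjusted p 0.0631). It passed with library totals (0.0434), with DESeq2 (0.0209) and with the replicate block (0.0465). None of the 12 members that fell in both sexes passed this test, and the differences of the 11 named above lay between -0.19 and 0.16.

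**Figure D5:**
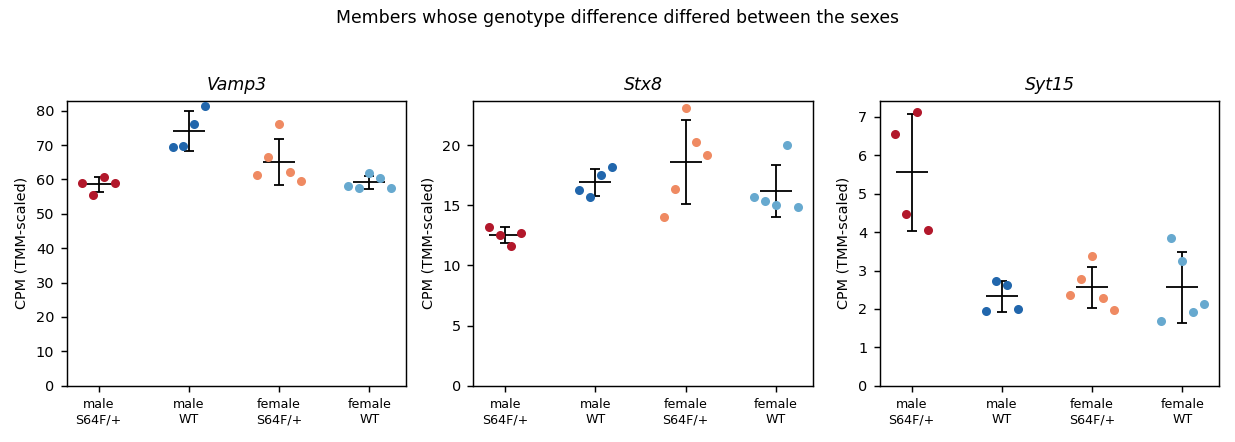
TMM-scaled CPM of Vamp3, Stx8 and Syt15, 1 point per library, with mean and SD, each axis from 0. For Vamp3 and Stx8 the male S64F/+ libraries lie below all male WT libraries while the female groups overlap, and for Syt15 the male S64F/+ libraries, between 4.06 and 7.14 CPM, lie above all other libraries.

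Between male and female WT islets 3 of the 68 members differed, against 2.36% of all tested genes, 1 higher in males (1.47%, against 1.73% of all tested genes) and 2 lower (2.94%, against 0.637%). Vamp3 was 74.2 ± 5.82 CPM in male WT and 59.1 ± 2 CPM in female WT islets (edgeR adjusted p 0.0232). Rims3 was 141 ± 13.7 CPM in male WT and 205 ± 37.6 CPM in female WT islets (edgeR adjusted p 0.027). Syt16 was 5.94 ± 0.793 CPM in male WT and 8.73 ± 1.35 CPM in female WT islets (edgeR adjusted p 0.0485). None of the 3 was called in all 18 fits that each left out 1 library: Vamp3 was lost without male WT 3 or 4 or female WT 1, 2 or 5, Rims3 was lost without male WT 1, 3 or 4 or female WT 1 or 5, and Syt16 held without male S64F/+ 1 or 3, female S64F/+ 1 or 3, or female WT 1. With library totals none was called.

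Between male and female S64F/+ islets 12 members differed (17.6%, against 16.1% of all tested genes), 4 higher in males (5.88%, against 8% of all tested genes) and 8 lower (11.8%, against 8.12%). With library totals 88.1% of all called genes were higher in males, against 49.6% with TMM, and the members split into 7 higher and 2 lower. The 4 higher became 1 or 2 without any 1 of the male S64F/+ libraries or female S64F/+ 2, 3, 4 or 5, and the 8 lower became 4 or 5 without any 1 of the male S64F/+ libraries or female S64F/+ 3 or 4. Held in all 18 such fits were 5 members. Of these, Syt15 was 5.56 ± 1.52 CPM in male S64F/+ and 2.56 ± 0.535 CPM in female S64F/+ islets (edgeR adjusted p 0.00703), and Sytl3 was 4.34 ± 0.203 and 8.4 ± 2.29 CPM in the same order (edgeR adjusted p 0.00989). Stx8 was 12.5 ± 0.672 CPM in males and 18.6 ± 3.51 CPM in females, Rab3b 22.5 ± 2.72 and 31.1 ± 1.49 CPM, and Stx6 46.3 ± 3.64 and 56.7 ± 3.78 CPM. The other 7 were Rab3d, Stxbp5 and Syt12, which were higher in males, and Rims3, Snap47, Syt16 and Vamp7, which were lower in males. These comparisons share libraries with the genotype comparisons above.

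Genes of the same pathways outside the symbol rule were read in 5 lists, against 15.4% higher and 12.3% lower among all tested genes in males and 10.2% and 11% in females. Of 15 priming and active-zone genes, 4 were higher and 3 lower in male S64F/+ islets, and 3 were higher and 7 lower in female S64F/+ islets, with median log2 fold changes of -0.14 and -0.27. The shares were 26.7% higher and 20% lower in males and 20% and 46.7% in females. Doc2b, a calcium sensor that binds Munc13 and syntaxin, rose to 20.1 ± 2.21 CPM in male S64F/+ against 7.68 ± 1.95 CPM in male WT islets (edgeR adjusted p 7.12e-05), and to 21.9 ± 5.22 CPM in female S64F/+ against 11.1 ± 2.18 CPM in female WT islets (edgeR adjusted p 0.000645). Rapgef4 (Epac2), the cyclic AMP sensor that acts on granule release, fell to 112 ± 3.14 CPM in male S64F/+ against 144 ± 4.46 CPM in male WT islets (edgeR adjusted p 0.000668). It also fell in females, to 117 ± 6.11 CPM against 134 ± 11 CPM in the same order (edgeR adjusted p 0.0348). Rimbp2, which links RIM to calcium channels, was 470 ± 67.1 CPM in female S64F/+ and 676 ± 75.6 CPM in female WT islets (edgeR adjusted p 0.00273).

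Of 16 Rab effector and granule transport genes, 1 was higher and 4 lower in male S64F/+ islets, and none higher and 7 lower in female S64F/+ islets, with medians of -0.17 and -0.31. The shares were 6.25% higher and 25% lower in males and 0% and 43.8% in females. Mlph (melanophilin), a Rab27 effector that binds myosin Va, was 8.38 ± 1.99 CPM in male S64F/+ and 16.5 ± 2.17 CPM in male WT islets (edgeR adjusted p 0.0032). In females it was 6.27 ± 2.68 CPM in S64F/+ and 24.5 ± 1.75 CPM in WT islets (log2 fold change -1.96 ± 0.20, edgeR adjusted p 2.64e-06). Madd, an exchange factor for Rab3 and Rab27, fell in females to 226 ± 18.8 CPM in S64F/+ against 360 ± 43.6 CPM in WT islets (edgeR adjusted p 3.53e-05). It also fell in males, to 238 ± 16.5 CPM against 300 ± 28 CPM in the same order (edgeR adjusted p 0.0194).

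Of 13 SNARE disassembly and tethering genes, none was higher and 2 were lower in male S64F/+ islets, and 1 was higher and 2 lower in female S64F/+ islets, with medians of -0.11 and -0.07. The 15.4% lower in each sex lay near the 12.3% and 11% of all tested genes. Exoc5, a subunit of the exocyst tether, was 47.2 ± 0.776 CPM in male S64F/+ and 59.1 ± 4.13 CPM in male WT islets (edgeR adjusted p 0.00371). Of 12 other SNAREs, none was higher and 2 were lower in male S64F/+ islets, and 3 were higher and none lower in female S64F/+ islets, with medians of -0.23 and 0.17. The shares were 0% higher and 16.7% lower in males and 25% and 0% in females, against the same 15.4% and 12.3%, and 10.2% and 11%. Vti1b, an endosomal SNARE, was 69.9 ± 11.2 CPM in female S64F/+ and 55.3 ± 4.65 CPM in female WT islets (edgeR adjusted p 0.0145).

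Of 27 granule content and membrane genes, 4 were higher and 7 lower in male S64F/+ islets, and 5 were higher and 6 lower in female S64F/+ islets, with medians of -0.06 and 0. The 14.8% higher in males was near the 15.4% of all tested genes, beside 25.9% lower in males and 18.5% higher and 22.2% lower in females. Ptprn2, a granule membrane phosphatase-like protein, was 621 ± 27.1 CPM in male S64F/+ and 887 ± 30.6 CPM in male WT islets, and 593 ± 112 CPM in female S64F/+ and 923 ± 35.9 CPM in female WT islets (edgeR adjusted p 0.00245 and 0.000217). Slc30a8, the zinc transporter of insulin granules, was 713 ± 15.5 CPM in male S64F/+ and 959 ± 54.9 CPM in male WT islets (edgeR adjusted p 0.00219). In females Slc30a8 was 745 ± 95.6 and 1010 ± 61.8 CPM in the same order (edgeR adjusted p 0.0012). Pcsk1, a proinsulin convertase, rose in males to 1210 ± 99.3 CPM in S64F/+ against 886 ± 122 CPM in WT islets (edgeR adjusted p 0.00954). It also rose in females, to 1080 ± 169 CPM in S64F/+ against 670 ± 51.5 CPM in WT islets (edgeR adjusted p 0.000196). Vgf, a granule protein, rose to 116 ± 38.4 CPM in male S64F/+ against 48 ± 2.99 CPM in male WT islets (edgeR adjusted p 0.000316). In females Vgf also rose, to 58.4 ± 13.1 CPM against 38.4 ± 2.9 CPM in the same order (edgeR adjusted p 0.0313).

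Promoter sequences from RefSeq (GRCm38.p6, 250 bases before to 50 after the annotated start) were found for 55 of the 73 members, 68 promoters in all. They were searched on both strands for the half-site of the large Maf factors (TGCTGAC or TGCTGAG), the full Maf recognition element (T-MARE), which contains the first of these, the RE1 element and the cyclic AMP response element TGACGTCA. A half-site was in 7 of the 68 promoters (10.3%), against 12.1% of all 32851 promoters. The cyclic AMP element was in 1 (1.47%, against 1.79%) and T-MARE and RE1 in none (each against 0.00304% of all promoters). Of 11 promoters of the members that fell in both sexes, 1 held a half-site, that of Syt2, on the minus strand from 41 to 47 bases after the start. The promoters of the 2 members with the largest falls in both sexes (Syt2, of whose 2 listed promoters the upstream one is shown, and Rims3) and of 2 that rose in both (Stx1a and Rab3c) are given 5′ to 3′, with the half-site in capitals.
Syt2, chr1:134646362-134646661, plus strand: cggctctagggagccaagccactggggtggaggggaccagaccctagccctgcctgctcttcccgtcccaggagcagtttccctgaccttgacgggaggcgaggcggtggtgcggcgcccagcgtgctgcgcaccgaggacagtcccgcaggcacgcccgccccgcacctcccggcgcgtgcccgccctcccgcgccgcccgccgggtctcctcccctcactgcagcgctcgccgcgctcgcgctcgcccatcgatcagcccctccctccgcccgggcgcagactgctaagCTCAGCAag
Rims3, chr4:120854549-120854848, plus strand: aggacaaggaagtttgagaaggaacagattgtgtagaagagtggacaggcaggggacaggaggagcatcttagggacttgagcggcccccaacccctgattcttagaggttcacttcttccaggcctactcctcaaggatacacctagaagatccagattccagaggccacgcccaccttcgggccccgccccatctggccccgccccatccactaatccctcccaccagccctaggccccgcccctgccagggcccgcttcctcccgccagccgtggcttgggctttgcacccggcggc
Stx1a, chr5:135023232-135023531, plus strand: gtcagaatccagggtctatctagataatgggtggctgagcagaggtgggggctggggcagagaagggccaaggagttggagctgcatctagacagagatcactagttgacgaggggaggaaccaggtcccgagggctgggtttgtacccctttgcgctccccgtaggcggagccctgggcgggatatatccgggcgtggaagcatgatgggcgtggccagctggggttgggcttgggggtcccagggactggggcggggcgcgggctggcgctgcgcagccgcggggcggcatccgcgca
Rab3c, chr13:110280157-110280456, minus strand: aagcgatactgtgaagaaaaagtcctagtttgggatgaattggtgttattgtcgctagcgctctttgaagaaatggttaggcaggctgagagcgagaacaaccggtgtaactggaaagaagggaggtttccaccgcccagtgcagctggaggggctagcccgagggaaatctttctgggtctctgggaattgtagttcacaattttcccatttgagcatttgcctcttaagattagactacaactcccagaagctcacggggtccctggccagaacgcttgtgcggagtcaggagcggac
A match describes these letters alone and does not show that a factor binds there.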

How the data were processed

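RNA of whole islets was sequenced in 18 libraries. The authors deposited read counts per gene and FPKM values. STAR, featureCounts, FastQC, MultiQC and DESeq2 with the GRCm38 genome are named in the submitters' processing notes, without versions. The sources used here give neither strand setting nor annotation. The deposited FPKM values equal count over library total over 1 fixed length per gene, and were not used. Levels were computed instead as CPM per kb of merged GENCODE M21 exons. No column was left unused, and 99 spike-in entries held 0 counts and were left out.

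Counts were tested with edgeR 4.0.16 (R 4.3.3, limma 3.58.1): TMM scaling, filterByExpr (minimum count 10, minimum total 15), a robust quasi-likelihood fit with 1 coefficient per group over all 18 libraries, and Benjamini-Hochberg adjustment over 18364 genes with a threshold of 0.05, two-sided. The SE of a log2 fold change is its size over the square root of F. Library totals ran from 19.3 to 109 M counts, and the SE of each fold change covers both counting error and the spread between libraries. The code was tested on simulated data. No pair of replicates agreed within sampling noise (chi-square per degree of freedom at least 20.7).

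Alternatives were library-total scaling, DESeq2 1.42.0 and its size factors in edgeR (RLE), no filter, at least 1 CPM in 4 libraries, fits of the 2 compared groups only, a replicate block within sex, and leaving out each library. Same-numbered libraries correlated at 0.11 to 0.418 in females and at -0.249 to 0.189 in males. The best match carried the same number only for replicates 2 and 4 in females and 4 in males, so the data do not establish pairs. The main fits used no replicate block. Named genes were every called member, a core granule-fusion set and, per pathway list and comparison, up to 3 called genes with the smallest p, with Mafa. Ptprn2, Pcsk1, Madd, Rapgef4, Slc30a8 and Vgf are given in both sexes. Members, gene lists and motifs were chosen with earlier results of these data known. Results of some members are not reported here and these members are not drawn, but counts over all members include them.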

Additional observations from a re-analysis of the deposited data

Results flagged for a closer look

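Among 128 groups of 4 or 5 libraries checked for a single library far from the rest, 9 were found, and chance gives about 1 in 20 groups, or 6.4 here. Those in S64F/+ islets were Syt1 in male library 2 (35.1 CPM, nearest other 22.9), Syt14 in female library 1 (78.9 CPM, nearest 54.2), Syt7 in female library 3 (195 CPM, nearest 287) and Vamp5 in female library 3 (6.23 CPM, nearest 4.28). Those in WT islets were Rab27a in male library 4 (270 CPM, nearest 236), Vamp5 in male library 2 (3.83 CPM, nearest 2.38), Cplx2 in female library 5 (638 CPM, nearest 570), Rims2 in female library 4 (52.2 CPM, nearest 58.5) and Stx8 in female library 4 (20 CPM, nearest 15.7).

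The genotype difference differed between the sexes, by the interaction test, for 3 of the 68 members, against 4.47% of all tested genes, which is near that background. The male minus female difference in log2 fold change was -0.48 for Vamp3, -0.64 for Stx8 and 1.26 for Syt15. Leaving out 1 library at a time lost Stx8 in 14 and Syt15 in 13 of 18 fits and Vamp3 in 0, and with library totals Vamp3 (edgeR adjusted p 0.186) and Stx8 (0.0965) no longer passed.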

How the results depend on the processing

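Of the counts of members called, 156 recomputed values stayed within 1.5 times the original and 88 moved further. With library totals, 4 members were lower in male S64F/+ islets, 2 had the higher and 0 the lower male genotype difference, 0 were higher and 0 lower in male than in female WT islets, and 7 were higher and 2 lower in male than in female S64F/+ islets. All genes shifted by 0.22 in males, 0.24 in the male minus female difference, -0.06 between WT islets and 0.18 between S64F/+ islets. With DESeq2, 7 members were higher in female S64F/+ islets, 2 had the higher and 4 the lower male difference, and 4 were higher in male than in female WT islets. With no filter, 0 had the higher and 1 the lower male difference, and 1 was lower in male WT islets. With the replicate block, 2 had the higher and 1 the lower male difference, while the male comparison gave 12 higher and 18 lower and the female one 5 higher and 14 lower. The block changed no other female call than that of Syt5. In the male comparison it lost Syt16 and Sytl3. In both sexes the paired libraries are known to share only a number. No paired analysis was possible because sexes share no animals for the comparisons of males with females. With 2 groups only, 2 were higher and 0 lower in male than in female WT islets. With RLE, 5 were lower in male than in female S64F/+ islets. The cause was not tested for library totals, DESeq2, RLE, no filter, the block or the fits of 2 groups.

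Leaving out 1 library at a time gave 7 to 14 members higher in male and 3 to 8 higher in female S64F/+ islets, 0 to 2 with the higher and 1 to 4 with the lower male difference, 0 to 2 higher and 0 to 2 lower in male WT islets, and 1 to 6 higher and 4 to 8 lower in male S64F/+ islets. Signs turned for uncalled members only. With library totals the male log2 fold change was 0.12 for Snap25, 0.16 for Unc13a and 0.15 for Vamp2. Over fits leaving out 1 library it was -0.16 to 0 for Unc13a in males and -0.18 to 0.1 for Rims2 in females. Male Syt16 and Sytl3 were also lost with no filter. With 156 counts in all, Cplx3 is limited by depth.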
